A study of Mus musculus with 12 samples.

Results

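*Ecm1*, *Saa3*, *Avpi1* and *Kcnn4* are 4 mouse genes that stood far higher in osteoblasts from mice given parathyroid hormone (PTH) than in those from mice given vehicle. They were picked for that difference, 4 of the 23284 genes with a value in the osteoblast libraries and of the 24346 in a second set of libraries, from cultured cells. Their levels with and without PTH are therefore given as a description, without a test. The rule used no values of the cultured cells, and there the genes were tested, although earlier results from those cells were also known.

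The study asked how intermittent PTH, which builds bone, changes osteoblasts, and followed up *Slpi*, the gene of a secreted protease inhibitor. Osteoblasts were sorted as 7AAD-Lin-CD45-ECFP+ cells from female Col2.3-ECFP mice, 12 weeks old at the start, in which a type I collagen promoter drives a cyan fluorescent protein, so the cells were defined by the activity of that promoter. In 3 vehicle and 3 PTH libraries, the mice had been injected with vehicle or, at a daily dose of 40 µg/kg, with the PTH(1-34) fragment, 5 days weekly over 3 weeks, and bones were taken 24 h after the last injection. The other 6 libraries came from MC3T3-E1, an osteoblast precursor line of mouse calvarial origin, selected with puromycin after transduction with an empty retrovirus (mock, 3 libraries) or with one carrying mouse *Slpi* cDNA (3 libraries), and never given PTH. Both MC3T3-E1 groups thus carry the vector and the resistance gene. The methods say of the study as a whole that biological replicates were different mice, but the labels number the libraries without tying them to animals, and nothing says that the MC3T3-E1 libraries came from separate cultures. The *p* values below thus measure the spread between libraries, which may be technical in MC3T3-E1 cells.

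PTH binds the receptor PTH1R on osteoblasts, which raises cyclic AMP through Gs, activates protein kinase A and changes the transcription of many genes. The 4 genes do different jobs. *Ecm1* encodes extracellular matrix protein 1, a secreted glycoprotein that binds perlecan, fibulins, fibronectin and matrix metalloproteinase 9. *Saa3* encodes serum amyloid A3, an acute-phase apolipoprotein that inflammatory cytokines induce outside the liver. *Avpi1* encodes arginine vasopressin-induced protein 1, an intracellular protein linked to the MAP kinase pathway. *Kcnn4* encodes KCa3.1, a potassium channel of the cell membrane that a rise in calcium inside the cell opens.

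The genes lie apart in the mouse genome (GRCm38/mm10, GENCODE M21), and each is protein-coding. *Ecm1* lies at chr3:95734147-95739569 on the minus strand and *Avpi1* at chr19:42123273-42129059 on the minus strand. *Saa3*, at chr7:46711998-46715700 on the minus strand, and *Kcnn4*, at chr7:24370263-24386690 on the plus strand, share a chromosome without being neighbours. The bases just before the 4 start sites are shown because PTH signals through transcription factors whose target letters are known. The sequences are those of RefSeq (GRCm38.p6), read 5′ to 3′ on the strand of the gene and ending at the base before the first one that GENCODE annotates as transcribed. That end is the RefSeq start for *Ecm1* and *Kcnn4* and lies 24 bases before it for *Saa3* and 66 for *Avpi1*. Positions are counted from the RefSeq start, and the 250 bases before it were searched. Capitals mark matches to 7 motifs, searched on both strands. These were CRE (TGACGTCA), its half-site (TGACG), AP-1 (TGANTCA), C/EBP (TTGCNNAA), NF-kB, RUNX (TGTGGT) and the TATA box (TATAAA). The CRE contains the half-site, and no other pair of them overlaps in these sequences.
Ecm1, chr3:95739570-95739819, minus strand: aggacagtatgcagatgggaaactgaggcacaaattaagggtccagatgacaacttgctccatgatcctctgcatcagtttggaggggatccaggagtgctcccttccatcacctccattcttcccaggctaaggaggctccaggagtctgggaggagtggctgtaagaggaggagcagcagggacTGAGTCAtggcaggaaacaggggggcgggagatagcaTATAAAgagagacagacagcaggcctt
Saa3, chr7:46715701-46715926, minus strand: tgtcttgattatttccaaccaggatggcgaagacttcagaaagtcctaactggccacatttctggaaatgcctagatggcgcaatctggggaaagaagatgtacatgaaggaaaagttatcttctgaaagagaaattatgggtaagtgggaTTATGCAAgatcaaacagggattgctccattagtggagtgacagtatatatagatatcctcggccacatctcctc
Avpi1, chr19:42129060-42129243, minus strand: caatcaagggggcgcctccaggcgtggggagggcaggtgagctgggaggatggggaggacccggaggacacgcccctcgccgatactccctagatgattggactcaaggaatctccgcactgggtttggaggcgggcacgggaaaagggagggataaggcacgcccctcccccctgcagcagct
Kcnn4, chr7:24370013-24370262, plus strand: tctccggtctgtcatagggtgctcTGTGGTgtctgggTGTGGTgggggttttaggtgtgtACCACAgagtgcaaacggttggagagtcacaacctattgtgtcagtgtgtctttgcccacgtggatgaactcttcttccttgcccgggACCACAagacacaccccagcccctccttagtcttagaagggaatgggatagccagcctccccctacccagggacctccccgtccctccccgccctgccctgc

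No motif of the 7 was common to the 4 sequences. *Ecm1* held an AP-1 match whose first base lies 64 bases before the start and a TATA box at 27 bases. *Saa3* held a C/EBP match on the reverse strand at 99 bases. *Kcnn4* held 4 RUNX matches, at 226, 213, 190 and 102 bases, the last 2 on the reverse strand, and *Avpi1* held none of the 7. Of 32851 mouse promoters in the same table, each of 250 bases, 6.75% held AP-1, 9.56% C/EBP, 14.0% RUNX and 12.4% the TATA box. The CRE, which 1.55% of promoters held, its half-site (17.8%) and the NF-kB letters (0.14%) were in none of the 4 windows. For NF-kB only that exact run of letters was searched, and variants of it were not looked for. A match is a run of letters and not a shown binding site, and a missing one says nothing of the factor outside the window. In GC content the 250 bases ranged from 43.2% in *Saa3* through 54.0% in *Ecm1* and 58.8% in *Kcnn4* to 64.0% in *Avpi1*, against a median of 52.4% over all promoters.

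Values are FPKM, reads on a gene scaled to transcript length and to library size, so that levels of different genes can be set side by side. A difference on the log2 scale is one of log2(FPKM + 1), which understates the change of low genes. The 2 sets of libraries were scaled separately, and levels set across them were not tested. Relative depth, from the step that 1 read makes in low values, ran from 0.787 to 1.402 of vehicle replicate 1 in osteoblasts and from 0.870 to 1 of mock replicate 1 in MC3T3-E1 cells. Between 10795 and 11746 genes per osteoblast library and between 11049 and 11156 per MC3T3-E1 library reached an FPKM of 1. The label of the cells was looked at first. The summed FPKM of 10 osteoblast markers was 41300, 39170 and 17830 with vehicle and 18580, 16360 and 27630 with PTH (replicates 1 to 3). In all 6 osteoblast libraries 9 of the 10 were above 0, but so were all 12 neutrophil markers, so that alone does not check the label. *Col1a2*, which the osteoblast sums include, was listed at 0 in vehicle replicate 3 and in the 3 PTH libraries. Gene by gene, 9 of the 10 osteoblast markers had a positive log2 difference with PTH (median 0.375). In limma, at an adjusted *p* under 0.05, 2 were called higher and 0 lower, where 6.38% and 8.85% of all genes tested were. *Col1a1*, the other type I collagen gene, whose promoter drives the reporter, was not on the list and was listed at 0 in 1 vehicle and 3 PTH libraries, so a listed 0 can be a failed estimate. The summed FPKM of 12 neutrophil markers was 372.8, 465.7 and 429.9 with vehicle and 2371, 1967 and 691.5 with PTH (replicates 1 to 3), so PTH replicate 3 stood apart. That of 8 T cell markers was 144, 135 and 91.4 with vehicle and 13.1, 18.4 and 1.18 with PTH. In bulk libraries such as these, fewer cells of a type and less RNA per cell cannot be told apart.

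*Ecm1* was by far the most abundant of the 4. With vehicle the 3 libraries gave 35.7, 27.8 and 29.3 FPKM, and with PTH 165, 144 and 181. The lowest PTH library lay 4.04-fold above the highest vehicle library, and the ratio of the means was 5.27. Among genes with an FPKM of at least 1, *Ecm1* moved from the 83.4 to 87.1 percentile to the 96.5 to 96.9 percentile, that is from a well expressed gene to one of the more abundant messages of the sorted cells.

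*Avpi1* and *Kcnn4* had low to middle levels without PTH. The FPKM of *Avpi1* was 4.89, 5.69 and 11.4 with vehicle and 28.6, 32.2 and 38.9 with PTH. Vehicle replicate 3 stood above the other vehicle libraries but below every PTH library, the lowest of which was 2.51-fold above it. *Kcnn4* had an FPKM of 2.74, 4.78 and 3.92 with vehicle and 14.7, 14.5 and 16.4 with PTH. The gap between its groups was 3.02-fold, from the highest vehicle to the lowest PTH library. The ratio of the means was 4.53 for *Avpi1* and 3.99 for *Kcnn4*.

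*Saa3* was close to the limit of detection without PTH. Its FPKM was 0.969 and 3.08 in vehicle replicates 1 and 2 and was listed at 0 in replicate 3, against 7.80, 10.05 and 10.7 with PTH. The lowest PTH library lay 2.53-fold above the highest vehicle library. All 6 values were whole multiples of 1 step (to within 9.1e-05 of a step), which gave 2, 5 and 0 steps with vehicle and 18, 26 and 31 with PTH. If a step is 1 read, the vehicle values rest on at most 5 reads. The same held for *Avpi1*, with 24, 22 and 75 steps against 157, 198 and 268, while no common step was found for *Ecm1* and *Kcnn4*. A step may stand for more than 1 read, so these numbers are a lower limit on the depth and cover counting error only.

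**Figure D1:**
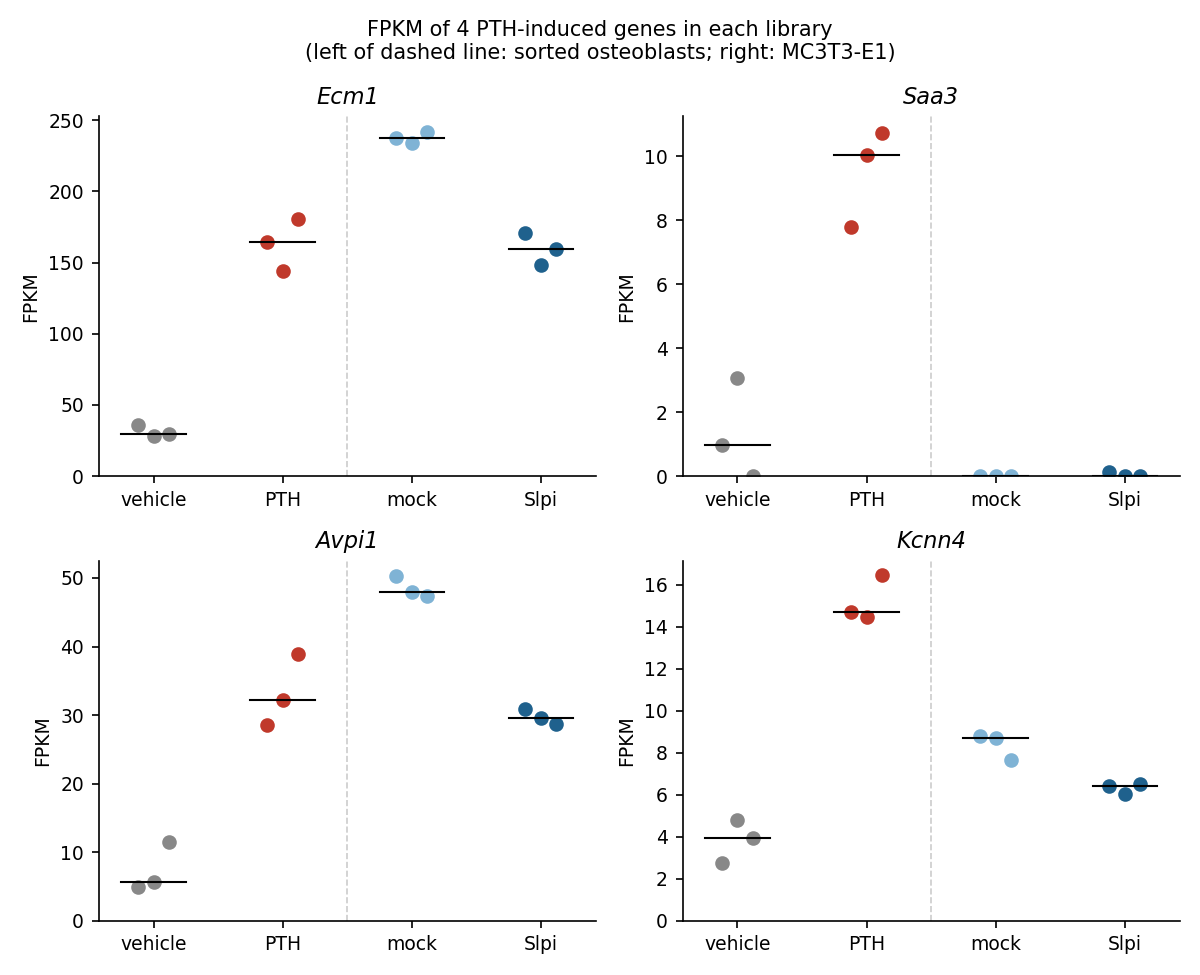
FPKM (linear axes from 0) of the 4 genes in each of the 12 libraries, by group, with bars at the group median and a point for each library. The PTH points lie above the vehicle points in every panel, and the Slpi points lie below the mock points for *Ecm1*, *Avpi1* and *Kcnn4*, while *Saa3* is at or near 0 in MC3T3-E1 cells.

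The vehicle and PTH libraries thus did not overlap for 4 of 4 genes, which the choice of the genes fixed. For comparison, 19.5% of the 13004 genes tested were higher in every PTH library than in any vehicle library, and 0.869% were called at least 2-fold higher at an adjusted *p* under 0.05 (limma). By the log2 difference, *Saa3* (2.38) ranked 17, *Ecm1* (2.36) 18, *Avpi1* (2.11) 24 and *Kcnn4* (1.77) 53 of the 13004. *Slpi* itself, which is not one of the 4, went from 2.21 ± 0.513 to 28.2 ± 8.88 FPKM (SD, n = 3), a log2 difference of 3.15.

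The spread between libraries differed among the 4 genes. The coefficients of variation over the 3 PTH libraries were 7.12% for *Kcnn4*, 11.2% for *Ecm1*, 15.8% for *Avpi1* and 16.0% for *Saa3*. With vehicle they were 13.5% for *Ecm1*, 27.0% for *Kcnn4* and 48.5% for *Avpi1*. *Saa3*, with a vehicle library listed at 0, was the most variable there, with a log2 SD of 1.01, larger than that of 99.2% of 2912 genes of like level. The log2 SD of *Avpi1* with vehicle, 0.575, was larger than that of 98.0% of 4869 genes of like level, whereas that of *Kcnn4* with PTH, 0.0948, was larger than that of only 20.0% of 3908. In order of level with PTH the genes ran *Ecm1*, *Avpi1*, *Kcnn4* and *Saa3*, with no overlap between any neighbours in that order. With vehicle *Avpi1* and *Kcnn4* did not overlap either, by a narrow margin (4.89 against 4.78), while *Kcnn4* and *Saa3* did (2.74 against 3.08).

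Each PTH library was then set against the vehicle mean, to see whether 1 library carried the difference. *Ecm1* stood 5.32-, 4.66- and 5.84-fold above it, *Avpi1* 3.90-, 4.39- and 5.31-fold, and *Kcnn4* 3.86-, 3.79- and 4.32-fold. For each of the 4 genes PTH replicate 3 was the highest library. This is also the PTH library with the lowest neutrophil sum (691.5), and its sum for 9 monocyte and macrophage markers, 40.7, was below all 3 vehicle values (41.6 to 71.7). Its osteoblast sum, 27630, was the highest of the PTH libraries. In proportion to *Ecm1* the other genes varied to different degrees over the 3 PTH libraries. *Kcnn4* was at 0.0894, 0.1 and 0.091 of its level, *Avpi1* at 0.174, 0.223 and 0.215, and *Saa3* at 0.0474, 0.0697 and 0.0593. Of the 12 neutrophil markers 6 were called higher with PTH and 6 of 7 tested T cell markers lower (limma). Of all genes tested 6.38% were called higher and 8.85% lower. The part of neutrophil and T cell RNA in the differences of the 4 genes was not tested.

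**Figure D2:**
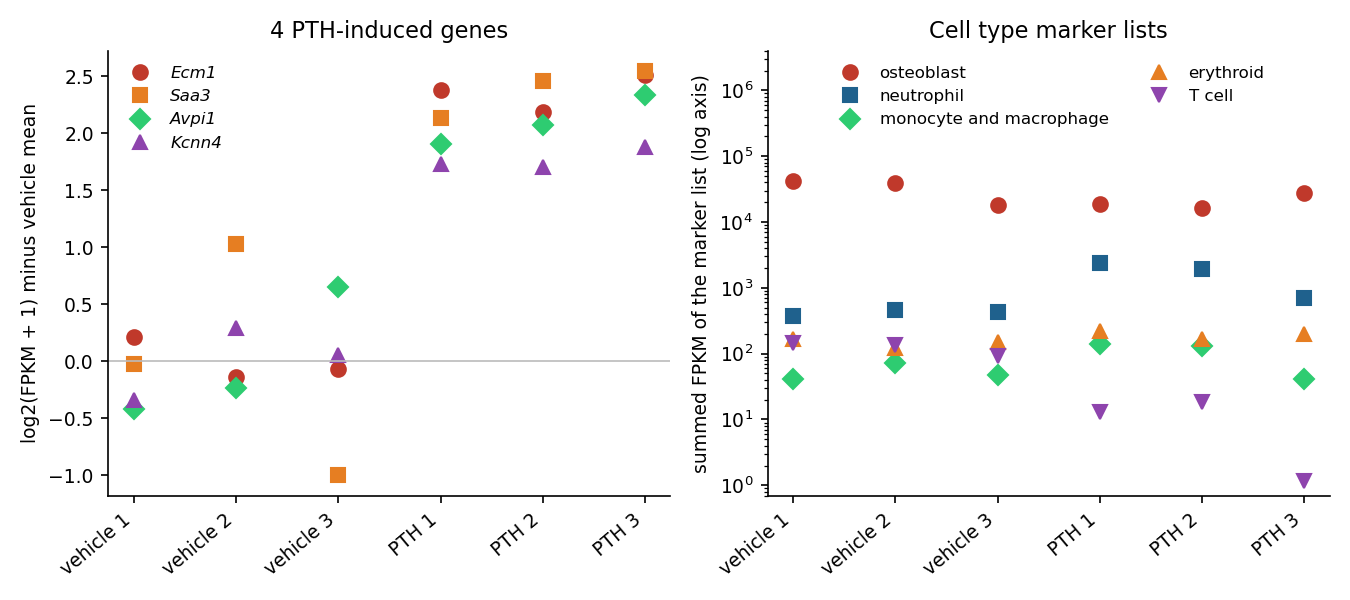
Left, log2(FPKM + 1) of the 4 genes in each vehicle and PTH library, less the mean of the vehicle libraries. Right, summed FPKM (log axis) in the same libraries of the marker lists of osteoblasts, neutrophils, monocytes and macrophages, erythroid cells and T cells. PTH replicate 3 has the highest value of each of the 4 genes and the lowest neutrophil sum of the PTH libraries, 691.5.

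Reads of related genes were considered next, since *Saa3* belongs to a gene family. *Saa1* and *Saa2* share 471 words of 75 bases, the read length, and reads may be split between them. *Saa3* shared none with *Saa1*, *Saa2* or *Saa4*. Of its 2602 words, 40 occur in another gene, and all lie in its 2200-base transcript and none in the 555-base one. *Ecm1*, *Avpi1* and *Kcnn4* shared no word with any other gene. The family did not move together. The FPKM of *Saa1* was 87.1, 173 and 116 with vehicle and 66.6, 127 and 11.7 with PTH (log2 difference -1.34, adjusted *p* = 0.271 in limma), with overlapping groups. *Saa2* was listed at 0 in 5 libraries and at 14.2 in PTH replicate 3, the library in which *Saa1* was lowest.

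In MC3T3-E1 cells the question was whether the 4 genes followed *Slpi* when its cDNA was introduced. The labels were checked on *Slpi*, which was at 386 ± 9.20 FPKM in mock and 1975 ± 129 in Slpi cells (SD, n = 3; the total of endogenous and introduced message). Mock cells thus already stood above the 28.2 FPKM of PTH osteoblasts, in libraries scaled separately. Of the 4 genes, the 3 that could be tested all fell, where 28.9% of the 11466 genes tested were called lower. The FPKM of *Ecm1* was 238, 234 and 242 in mock and 171, 149 and 159 in Slpi cells. That of *Avpi1* was 50.2, 47.9 and 47.4 against 30.9, 29.5 and 28.7, and that of *Kcnn4* 8.80, 8.69 and 7.63 against 6.40, 6.01 and 6.53. In each case every Slpi library lay below every mock library.

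On the log2 scale *Avpi1* fell by 0.69 ± 0.0398 (SE, adjusted *p* = 5.4e-06), *Ecm1* by 0.58 ± 0.0487 (adjusted *p* = 3.2e-05) and *Kcnn4* by 0.36 ± 0.0615 (adjusted *p* = 0.00122, all in limma over 11466 genes). The means changed by -38.8%, -33.0% and -24.6%. Calls were common in this comparison. Beside the 28.9% called lower, 31.9% were called higher, and 32.2% were lower without overlap between the groups, so the direction alone sets the 3 genes little apart. By the size of the difference *Avpi1* lay at the 2.28 percentile of all tested genes, *Ecm1* at 4.0 and *Kcnn4* at 12.3, where the interquartile range was -0.19 to 0.20. With 3 libraries against 3, the exact two-sided permutation test gave *p* = 0.1 for each gene, the smallest it can give.

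*Saa3* was not tested in these cells. It was listed at 0 in the 3 mock libraries and in 2 Slpi libraries, and at 0.124 FPKM in Slpi replicate 1. The order of the genes was otherwise that of the sorted osteoblasts, *Ecm1* above *Avpi1* above *Kcnn4*, with no overlap between neighbours in either group. Side by side and untested, the mock values of *Ecm1* (238.0 ± 3.87) and *Avpi1* (48.5 ± 1.50) stood above those of PTH osteoblasts (163.1 ± 18.3 and 33.2 ± 5.25), and that of *Kcnn4* (8.37 ± 0.646) lay between vehicle (3.81 ± 1.03) and PTH (15.2 ± 1.08; SD, n = 3). The labels give different library kits for the 2 cell sources, while the methods name SMART-Seq v4 alone, and a difference of kit cannot be told apart from that of the cells. The sum of the neutrophil markers in MC3T3-E1 cells was 1.23 to 2.24 FPKM, with *S100a9*, *Elane*, *Ngp*, *Retnlg* and *Ctsg* at 0 in all 6 libraries, which bears on these cells and not on the sorted osteoblasts. Of 9 osteoblast markers tested, 6 were called higher and 1 lower in Slpi cells, where 31.9% and 28.9% of all genes tested were.

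To place the 3 genes, the other genes with a large PTH difference were followed into the same cells. At least 2-fold higher with PTH and called were 113 genes, of which 72 were tested in MC3T3-E1 cells. Of these 32 (44.4%) were called lower and 22 (30.6%) higher in Slpi than in mock cells, and 18 were not called. Of all genes tested in these cells 28.9% were called lower and 31.9% higher, so the share higher was near that of all genes. The 72 include the 3 genes described here, which were chosen for their PTH difference, so their passing the PTH threshold is no test of them. Without them, 29 of 69 (42%) were lower and 22 higher. The median log2 difference of the 72, with the 3 genes among them, was -0.13, against 0.0041 over all genes. The PTH and Slpi comparisons share no library.

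**Figure D3:**
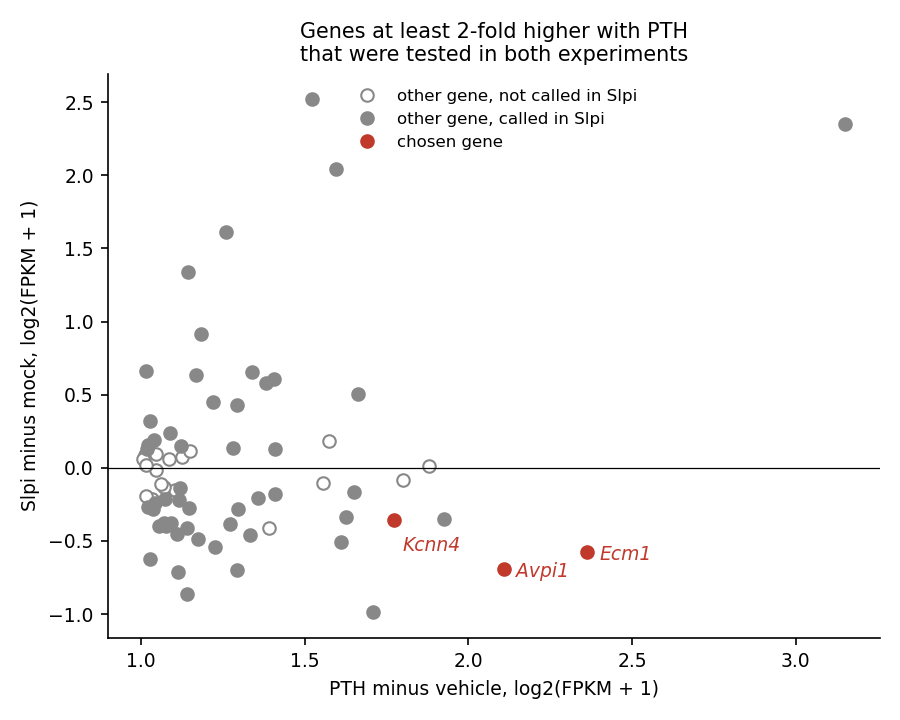
Log2 difference of Slpi from mock cells (vertical) against that of PTH from vehicle osteoblasts (horizontal), one point for each of the 72 genes that PTH raised 2-fold or more and that were tested in both, filled where called in Slpi against mock cells. *Ecm1*, *Avpi1* and *Kcnn4* are named and lie at -0.58, -0.69 and -0.36 on the vertical axis, below the median of -0.13.

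The pathways around the 4 genes were read from 6 lists of 97 genes in all. With PTH 86 were tested, and 20 (23.3%) were called higher and 6 (6.98%) lower, where 6.38% and 8.85% of all genes were (limma, adjusted *p* under 0.05). In Slpi cells 65 were tested, and 9 (13.8%) were higher and 32 (49.2%) lower, against 31.9% and 28.9%. The calls with PTH depended on the vehicle libraries, and without replicate 1 or without replicate 2 none of the 26 was made. At an unadjusted *p* under 0.05 there were then 30 higher and 7 lower, and 29 higher and 7 lower. *Adcy6*, *Dusp1*, *Dusp5*, *Fn1*, *Gnas*, *Hspg2*, *Il1r1*, *Nr4a1*, *Rgs2*, *Scarb1* and *Tlr2* were called higher with PTH and lower in Slpi cells, 11 of the 15 genes called in both. The like share over all genes called in both was not computed, so this count is a description of the lists. In Slpi cells *Gnas* fell by only 0.09, and its call was lost without a filter, without a trend and with a replicate block. The Slpi calls of *Gnas*, *Hspg2* and *Il1r1* were also lost when some single libraries were left out. *Lum* and *Slpi* were higher in both, but with quantile normalization *Lum*, *Dusp1* and *Nr4a1* were not called with PTH.

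Among the binding partners of ECM1 and related matrix genes, 4 of 11 tested rose with PTH and none fell. *Fn1*, fibronectin, went from 260.4 ± 22.5 to 537.8 ± 77.7 FPKM (SD, n = 3; log2 1.04, adjusted *p* = 0.0138 in limma). *Hspg2*, perlecan, rose by 0.69, *Tgfb1*, the matrix-stored growth factor, by 0.68 and *Lum*, the proteoglycan lumican, by 0.46. With quantile normalization *Lum* was at 0.24 and not called (adjusted *p* = 0.297), and its call was also lost with a pseudocount of 0.1, without a filter and without a trend. In Slpi cells 3 of 7 fell, *Ltbp1*, which holds latent TGF-beta in the matrix, by 0.52 (adjusted *p* = 2.5e-05), *Fn1* by 0.28 (0.44 with quantile normalization) and *Hspg2* by 0.17, and *Lum* rose by 0.37.

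Of the serum amyloid family and its receptors, 2 of 9 rose with PTH and none fell. These were the receptors *Tlr2*, which senses microbial lipoproteins and SAA (5.62 ± 0.833 to 10.5 ± 1.14 FPKM, SD, n = 3; adjusted *p* = 0.0204 in limma), and *Scarb1*, the HDL receptor (log2 0.78). In Slpi cells 3 of 3 fell, *Tlr2* by 0.62, *Scarb1* by 0.25 and *Tlr4* by 0.17, which was not called with quantile normalization (adjusted *p* = 0.0596). The *Tlr4* call was also lost without any single mock library and without Slpi replicate 2. Of 23 acute-phase, NF-kB and C/EBP genes 6 rose with PTH and 1, *Nfkb1*, fell by 0.36. Besides *Slpi*, these were *Il1b*, an inflammatory cytokine (log2 1.64), *Hp*, haptoglobin (1.56), *Lcn2*, lipocalin 2 (1.47), *Rela*, an NF-kB subunit (0.55), and *Il1r1*, the interleukin-1 receptor (0.38). In the PTH libraries the FPKM of *Lcn2* was 59.9, 56.5 and 20.2, that of *Il1b* 10.75, 10.7 and 6.98 and that of *Hp* 16.0, 13.6 and 11.6. The neutrophil sums of the same libraries were 2371, 1967 and 691.5. *Rela* instead was highest in replicate 3 (52.7, 47.1 and 65.7). The part of neutrophil or other myeloid RNA in the rises of these genes and of *Tlr2* was not tested. The call of *Lcn2* was lost with a pseudocount of 0.1, without a filter, without a trend and with a replicate block. That of *Rela* was lost with quantile normalization, without a filter and without a trend. *Il1r1* was not called without a filter, without a trend or with the block. In Slpi cells 3 of 17 rose and 9 fell. *Ptx3*, a soluble pattern receptor, went from 205.7 ± 14.3 to 98.1 ± 11.2 FPKM, *Socs3*, a brake on cytokine signals, fell by 0.70 and the C/EBP factors *Cebpb* and *Cebpd* by 0.73 and 0.62 on the log2 scale, and *Nfkbiz* by 0.35. Without mock replicate 1 *Cebpb* fell by 0.47.

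The partners of KCNN4 gave no call with PTH in limma. Of 13 tested, 0 were called in either direction, with 4 higher and 0 lower at an unadjusted *p* under 0.05. In Slpi cells 3 rose and 6 fell. The calcium entry channel *Trpv4* fell by 0.52 and the store-operated channel *Orai1* by 0.36. The nucleoside diphosphate kinases *Nme1* and *Nme2*, of which NME2 activates the channel, rose by 0.58 and 0.45 (*Nme2* by 0.27 with quantile normalization), and *Trim27*, which inhibits it through a lipid kinase, by 0.41.

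For *Avpi1* the list held the vasopressin receptors and the MAP kinase pathway, of which 3 of 10 rose and 2 fell with PTH. *Dusp5*, a nuclear MAP kinase phosphatase, went from 12.4 ± 3.52 to 39.3 ± 6.29 FPKM (SD, n = 3; log2 1.61, adjusted *p* = 0.0140 in limma) and the feedback inhibitor *Spry2* from 9.37 ± 0.625 to 19.4 ± 1.13. *Dusp1* rose by 0.61, while *Dusp4* fell by 1.05. With quantile normalization *Dusp1* was at 0.35 (adjusted *p* = 0.154) and *Dusp4* at -0.95 (adjusted *p* = 0.0558 in limma), and both calls were also lost with a pseudocount of 0.1, without a filter and without a trend. In Slpi cells 1 of 8 rose and 4 fell, *Dusp5* by 0.51, *Dusp1* by 0.43, the kinase *Mapk3* by 0.30 and *Map2k1*, which activates it, by 0.14. *Map2k1* was not called without mock replicate 1 or without Slpi replicate 2 (adjusted *p* = 0.0898 and 0.0797 in limma).

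Of 20 genes of the PTH receptor and cyclic AMP pathway 5 rose and 3 fell with PTH. *Gnas*, which encodes the Gs alpha subunit, went from 486.9 ± 40.0 to 794.6 ± 85.8 FPKM (SD, n = 3; log2 0.70, adjusted *p* = 0.0175 in limma). The cyclase *Adcy6* rose by 0.77, *Rgs2*, which dampens G protein signals, by 0.87 and *Fgf2*, a growth factor, by 1.80, which was not called without a filter (adjusted *p* = 0.0557). The *Fgf2* call was also lost when any single PTH library was left out (adjusted *p* from 0.0506 to 0.0546 in limma). With vehicle the FPKM of *Fgf2* was low, at 0.321, 0.816 and 2.16. The kinase subunit *Prkacb* fell by 1.09 and *Tnfsf11*, the osteoclast factor RANKL, by 0.79. In Slpi cells 1 of 17 rose and 7 fell. The 1 was the receptor, *Pth1r*, which went from 15.0 ± 0.536 to 75.4 ± 3.20 FPKM (SD, n = 3; log2 2.25, adjusted *p* = 3.2e-08 in limma). *Rgs2* fell by 0.44, the phosphodiesterases *Pde4b* and *Pde4d* by 0.43 and 0.20, and the early genes *Nr4a1* and *Nr4a2* by 0.32 and 0.25. *Nr4a2* was not called with quantile normalization, nor without mock replicate 3, Slpi replicate 1 or Slpi replicate 3.

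The genes beside the 4 on the chromosome were compared to see whether the difference was shared locally. Of 24 neighbours 17 were tested with PTH, and 2 (11.8%) were called higher, where 6.38% of all genes were, and none lower (8.85%). *Plaur*, the urokinase receptor, 75.8 kb from *Kcnn4*, went from 70.8 ± 6.90 to 175.8 ± 25.2 FPKM (SD, n = 3; log2 1.29 ± 0.132 SE, adjusted *p* = 0.0131 in limma). *Marveld1*, 18.3 kb from *Avpi1*, went from 28.6 ± 4.78 to 53.3 ± 8.93 FPKM (log2 0.88 ± 0.163 SE, adjusted *p* = 0.0216 in limma). The nearest neighbours were flat in comparison, *Tars2*, 0.407 kb from *Ecm1*, at -0.03 and *Saal1*, 1.32 kb from *Saa3*, at 0.01, and *Pi4k2a*, 1.19 kb from *Avpi1*, missed the threshold (log2 0.42, adjusted *p* = 0.0528). Neither call held without vehicle replicate 1 (adjusted *p* = 0.0734 for *Plaur* and 0.0934 for *Marveld1*) or without vehicle replicate 2 (0.0736 and 0.0887). In Slpi cells 14 neighbours were tested, and 5 (35.7%) were higher, *Plaur* among them by 0.43, and 5 (35.7%) lower, *Marveld1* among them by 0.28, near the 31.9% and 28.9% of all genes.

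**Figure D4:**
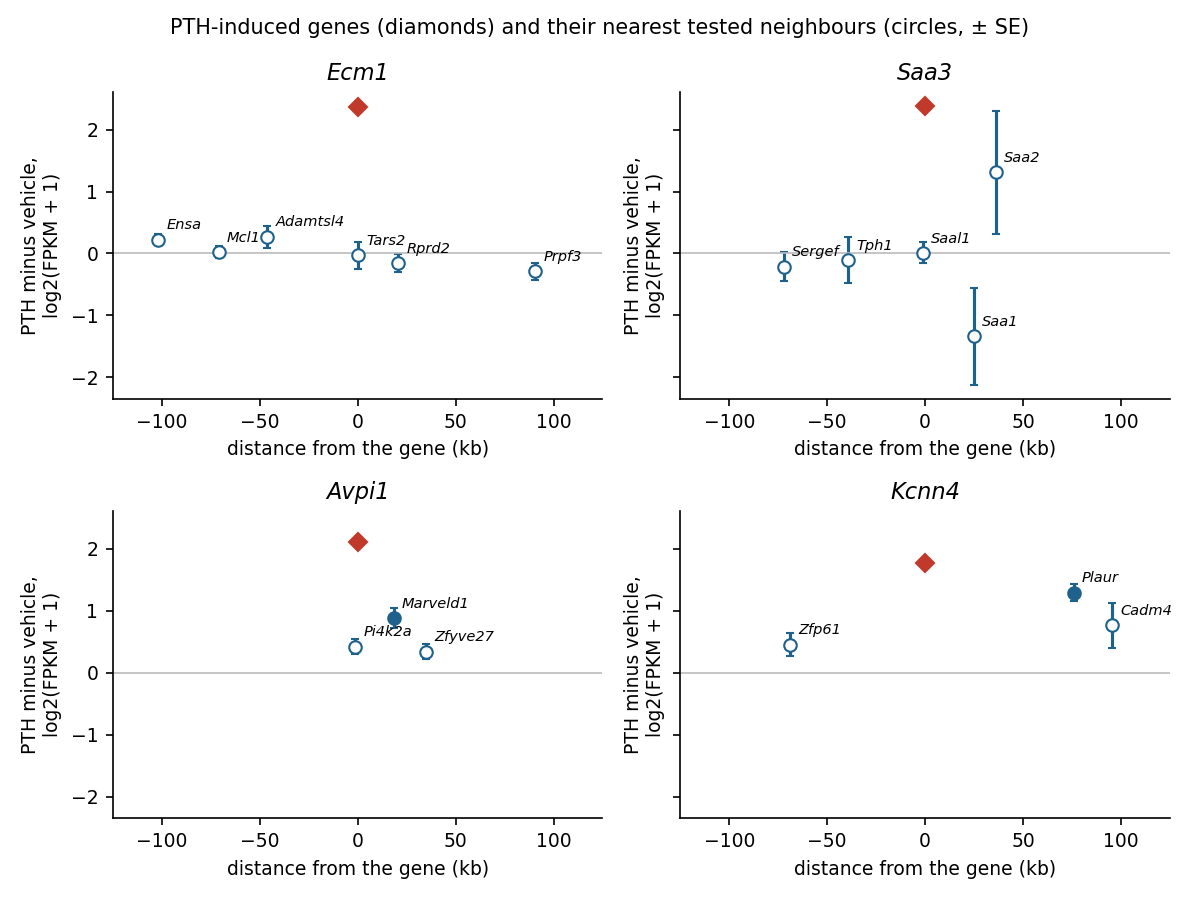
Log2 difference of PTH from vehicle osteoblasts (vertical, circles with the SE, filled where called) against distance in kb from each of the 4 genes, which are drawn as diamonds. Of the tested neighbours 2 are filled, *Plaur* at 1.29 and *Marveld1* at 0.88.

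Across the 6 osteoblast libraries the genes most like each of the 4 were found by Pearson's r of log2(FPKM + 1) over 7412 genes with a mean of at least 5 FPKM. With 6 libraries in 2 groups such values mainly restate the group difference, and they are given as a description. Closest to *Kcnn4* were *Il1rl2*, the interleukin-36 receptor (r = 0.996, 2.00 ± 0.487 to 8.34 ± 0.474 FPKM), and *Grn*, progranulin (r = 0.996). *Col6a3*, a collagen VI chain, ran with *Ecm1* (r = 0.996, 43.1 ± 3.49 to 78.3 ± 3.88 FPKM), *Trib2* with *Avpi1* (r = 0.996) and *Commd9* with *Saa3* (r = 0.998). In Slpi cells *Trib2*, *Grn* and *Il1rl2* were also lower, by 0.43, 0.20 and 0.17 (adjusted *p* = 9.8e-05, 0.00587 and 0.0386 in limma), and *Col6a3* and *Commd9* higher by 0.27 and 0.20. Among the 4 genes themselves r ran from 0.756 for *Saa3* with *Avpi1* to 0.957 for *Ecm1* with *Kcnn4*.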

How the data were processed

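The deposited values are FPKM, 1 per gene and library, made by the authors. Per the methods and labels, single-end reads were mapped to mm10 with TopHat2 2.0.13, Bowtie2 2.2.3 and SAMtools 0.1.19, and FPKM came from Cuffnorm 2.2.1. The gene annotation and the number of mapped reads are not given in the sources used here. The labels give SMART-Seq v4 for sorted osteoblasts and TruSeq for MC3T3-E1 cells, whereas the methods name only SMART-Seq v4. Replicates were numbered by title.

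In each experiment, genes that reached an FPKM of 1 in any of the 6 libraries were tested, on log2(FPKM + 1), 3 libraries against 3 without a block, with limma 3.58.1 (eBayes with trend, R 4.3.3) and Benjamini-Hochberg adjustment. This gave 13004 and 11466 genes. On data simulated for each, with a planted log2 change of 2, 193 and 200 of 200 changed genes were recovered with 6 and 4 false calls. Recovery of smaller changes, such as most of those reported here, was not measured. Python 3.11.15 was used for the rest.

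The 4 genes, the lists and the tests were chosen with earlier results of these data known. Named are the called genes of each list (the 6 largest where more were called), 3 neighbours on each side, and the 3 genes most like each of the 4, and some of these are not reported here. Promoters were printed without bases that GENCODE M21 annotates as transcribed.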

Additional observations from a re-analysis of the deposited data

How the results depend on the processing

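The falls of *Ecm1*, *Avpi1* and *Kcnn4* in Slpi cells kept direction and call in every alternative run, a pseudocount of 0.1, no filter, a mean FPKM of at least 1, quantile normalization, no trend, a replicate block, division by the library median (added after seeing the data) and leaving out each library. Adjusted *p* values in limma ranged over these from 2.0e-05 to 3.1e-04 for *Ecm1*, 3.5e-06 to 6.6e-05 for *Avpi1* and 7.5e-04 to 0.00621 for *Kcnn4*. For the PTH difference of *Ecm1*, 2.36, quantile normalization gave 2.17, and for that of *Saa3*, 2.38, a pseudocount of 0.1 gave 3.77. Leaving out 1 library gave 2.29 to 2.47 for *Ecm1*, 1.88 to 2.90 for *Saa3*, 1.90 to 2.44 for *Avpi1* and 1.60 to 1.92 for *Kcnn4*. The 830 genes higher with PTH became 517 without a filter, 113 at 2-fold or more and 0 to 674 when a library was left out. The low counts were 1 without vehicle replicate 1, 0 without vehicle replicate 2 (1415 higher at an unadjusted *p* under 0.05) and 172 without PTH replicate 1. The 1151 lower genes became 491 at 2-fold and 0 to 895 without a library. List genes higher and lower with PTH, 20 and 6, became 7 and 2 at 2-fold and 0 to 17 and 0 to 5 without a library. In Slpi cells the 2-fold threshold left 84 of 3658 higher and 44 of 3315 lower genes, and 2 of 9 and 1 of 32 list genes. The causes were not tested. Of the 72 genes followed into Slpi cells, 32 were lower and 22 higher; leaving out vehicle replicate 2, at an unadjusted *p* under 0.05, gave 34 and 20 of 75. Of the 28 list genes and neighbours named with PTH, all kept their direction, and 0 kept the call without vehicle replicate 1 or 2.

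Same-numbered libraries deviated together little if at all (r from 0.0294 to 0.102 in osteoblasts and from -0.0523 to 0.0385 in MC3T3-E1 cells). This was at or under 0.1 in all pairs but 1, so the numbers were not taken to pair them. For different numbers r was -0.116 to 0.0688 and -0.0988 to 0.105. As a hint from the data, each vehicle library correlated best with the PTH library of its number, while PTH replicate 1 correlated best with vehicle replicate 2. With the replicate as a block, 1028 genes were higher and 1234 lower with PTH, and the adjusted *p* in Slpi cells was 1.2e-04 for *Ecm1*, 3.2e-05 for *Avpi1* and 0.0035 for *Kcnn4*. Reads per library are unknown, so values near 0, such as *Saa3* with vehicle, have no counting interval.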
